A study of Mus musculus with 25 samples.

Results

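Microglia, the resident macrophages of the brain, were compared between mice that had lost 1 copy of Bin1 in forebrain neurons and control mice in which Bin1 was not recombined. Bin1 (Bridging integrator 1) encodes a membrane-curving adaptor protein of endocytosis and is a susceptibility locus for Alzheimer's disease. In these animals the recombination was directed to neurons by the Cre transgene. The comparison was formed from all libraries labelled heterozygous (Het-cKO) or WT, which were 13 of the 23 libraries in the table. The 10 homozygous libraries were left out.

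Het-cKO mice were Bin1flox/wt Thy1-Cre+ and WT mice were Bin1flox/wt Thy1-Cre-, so both genotypes carried 1 floxed Bin1 allele. The strain label was B6.129S6-Bin1tm2Gcp/J crossed with FVB/N-Tg(Thy1-cre)1Vln/J for both. The genotypes differed in the Cre transgene as well as in the recombined allele, and the 2 cannot be told apart here. The Thy1 promoter drives Cre in forebrain excitatory neurons. All mice were 3 months old. The Het-cKO group held 4 females and 3 males, and the WT group held 2 females and 4 males. The labels describe 8 Het-cKO and 7 WT mice; 1 male and 1 female of these, respectively, have no column in the table and were not analysed here. Each library is the sorted CD11b+ CD45med fraction of 1 brain, without the cerebellum and olfactory bulbs, sequenced in bulk. Fewer cells of a type and less RNA per cell cannot be told apart in such samples.

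Microglia carry out immune surveillance, clear debris and synapses by phagocytosis, and depend on the growth factor receptor Csf1r. In the healthy brain they express a homeostatic set of genes (P2ry12, Tmem119, Cx3cr1), and in injured or amyloid-bearing brain a disease-associated set (Apoe, Trem2, Clec7a, Cst7) is known to increase. The question was whether heterozygous loss of neuronal Bin1 moves any gene of these or other sets, and where it does not, how large a change the 13 mice leave possible.

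The libraries had the markers of their labelled cell type. All 15 microglia markers were detected, with a summed level of 71306 to 86936 counts scaled to library size (CPM) in Het-cKO and 76578 to 95269 in WT. The summed markers of other cells were low: neuron markers 16.9 to 46.3 CPM over both genotypes, astrocyte markers 217.2 to 304, oligodendrocyte markers 174 to 246, endothelial and mural markers 51.7 to 83.8, border macrophage markers 8.74 to 65.1, lymphocyte markers 35.7 to 51.1, and monocyte and neutrophil markers 8.33 to 66.9. Total counts were 11493022 to 16073574 in Het-cKO and 13309699 to 15340468 in WT. Xist and Ddx3y matched the labelled sex in 13 of 13 mice. Thy1, whose promoter drives the transgene, had 7 counts in all over 4 of the 7 Het-cKO mice and 0 in the 6 WT mice, which allows up to 3 counts, and was too low to test.

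Bin1 itself (ENSMUSG00000024381.13, GRCm38 chr18:32377230-32435737, plus strand) was measured at similar levels in microglia of both genotypes. The lowest, median and highest Het-cKO mice were at 617, 677 and 722 CPM, and the WT mice at 586, 672 and 789. The WT range enclosed the Het-cKO range. The log2 fold change was -0.04 (SE 0.07, n = 7 and 6), with a 95% interval of 0.874 to 1.09-fold and an adjusted p of 0.913 (edgeR's quasi-likelihood test). In females the difference was -0.21 and in males 0.10 on the log2 scale. A 1.5-fold change of Bin1 in either direction was excluded (equivalence test, adjusted p = 9.07e-06).

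No gene passed the test between the genotypes. Of 12309 genes tested with sex in the model, 0 (0%) were differentially expressed, defined as an adjusted p below 0.05 with a fold change above 1.5, and the smallest adjusted p was 0.442. An unadjusted p below 0.05 was reached by 1018 genes, of which 698 (5.67%) were higher and 320 (2.6%) lower in Het-cKO. Limma-voom also called 0 genes, with 1025 at an unadjusted p below 0.05. DESeq2 called 3 genes, Gm37472, Fancm and Nlrp1c-ps, which are described below. The higher share among genes with an unadjusted p below 0.05 was 68.6%. It was 85.1% when libraries were scaled to total counts alone, and 44.7% when offsets for transcript length and GC content were added, so the excess of higher genes turned to the opposite side in the last case. These offsets were fitted in the same libraries and remove trends with length and GC content by design.

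For most genes the data give a limit rather than a change. A change beyond 1.5-fold in either direction was excluded for 8761 genes (71.2%), by 2 one-sided tests per gene at an adjusted p below 0.05. A 2-fold change was excluded for 10772 genes and a 1.3-fold change for 5809. No gene had a 1.2-fold change excluded after adjustment, although the 95% interval lay within 1.2-fold for 2510 genes. The median gene's interval reached out to 1.31-fold. The limit depended on the level: a 1.5-fold change was excluded for 98.8% of genes with a mean log2 CPM between 6 and 8, for 62.8% between 2 and 4, and for 3.63% between 0 and 2. None of the 514 genes below 0 had it excluded. By estimate alone 694 genes lay beyond 1.5-fold, and 599 of these had a mean log2 CPM under 2.

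**Figure D1:**
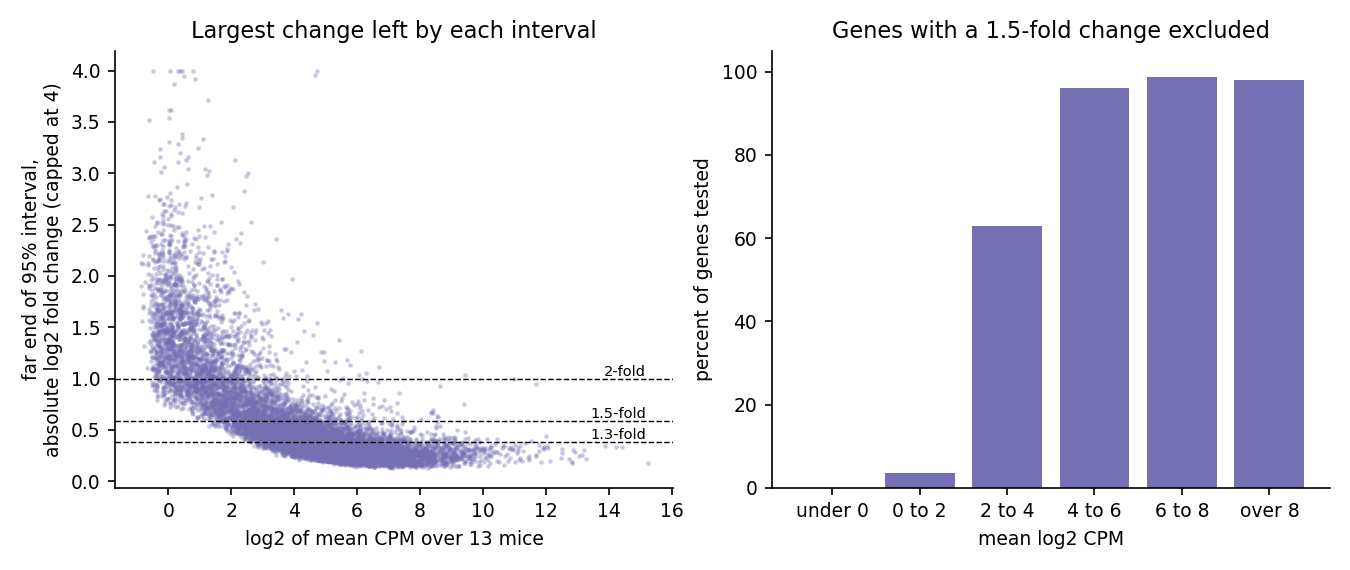
Left, for each of 12309 genes, the far end of its 95% interval as an absolute log2 fold change (capped at 4) against the log2 of its mean CPM over 13 mice, with dashed lines at 1.3-fold, 1.5-fold and 2-fold; right, the percent of genes tested at each mean log2 CPM for which a 1.5-fold change was excluded. The share is 0% under 0 and 98.8% between 6 and 8.

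The 8 narrowest intervals among genes with a 1.5-fold change excluded lay close to no change. Mef2c, a transcription factor of homeostatic microglia, was at 584, 605 and 637 CPM (lowest, median, highest) in Het-cKO and at 550, 572 and 616 in WT, and its 95% interval was 0.980 to 1.16-fold. Hpgds, the prostaglandin D2 synthase of microglia, was at 405, 426 and 444 CPM in Het-cKO and 403, 420 and 452 in WT, with an interval of 0.934 to 1.11-fold. Both groups overlapped almost fully for Hpgds, while 2 of 7 Het-cKO mice were above all WT mice for Mef2c. Coro1b, an actin-binding coronin, had an interval of 0.872 to 1.03-fold, and Gmip, a GTPase-activating protein, one of 0.911 to 1.082-fold. The intervals of Tbc1d17, Ctc1, Twf2 and Sh3bp1 likewise lay between 0.892 and 1.104-fold.

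The homeostatic identity of the cells showed little room for change. A 1.5-fold change was excluded for 15 of 15 microglia markers and 18 of 18 homeostatic genes, against 71.2% of all genes. The share followed the level, and was 98.8% of all genes with a mean log2 CPM of 6 to 8 and 98.1% over 8. The full counts are therefore near what abundant genes of any kind gave. P2ry12, the purinergic receptor that guides microglial processes, was at 7626 to 10129 CPM in Het-cKO and at 7932 to 12253 in WT (log2 fold change -0.10, interval 0.810 to 1.07-fold). Csf1r, the survival receptor, was at 11562 to 17006 and 11175 to 19458 CPM (-0.10, 0.789 to 1.11-fold). Cx3cr1, the fractalkine receptor, had a log2 fold change of -0.05 (0.835 to 1.12-fold), and Sall1, a transcription factor of microglial identity, one of 0.02 (0.912 to 1.12-fold). The estimates of 14 of the 15 markers were below 0, with a list median of -0.07 against -0.01 over all genes tested, and none had an unadjusted p below 0.05.

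Among the regulators of this state, Irf8, which is required for the myeloid lineage, was at 756, 812 and 875 CPM in Het-cKO and 853, 888 and 967 in WT, with a log2 fold change of -0.14 (SE 0.06, unadjusted p = 0.0307). Of 7 Het-cKO mice, 6 were below every WT mouse, and the difference did not pass adjustment in edgeR. Tgfbr1, the receptor that transmits TGF-beta signals, had a log2 fold change of -0.02 (0.824 to 1.17-fold). Of the 13 tested genes for microglial survival and growth factors, 12 (92.3%) had a 1.5-fold change excluded. The share was 71.2% of all genes and 98.8% of those with a mean log2 CPM of 6 to 8.

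Disease-associated genes were not higher. Of 23 tested, 20 had estimates below 0 (median log2 fold change -0.12), 0 were higher and 2 lower at an unadjusted p below 0.05, where all genes gave 5.67% and 2.6%. A 1.5-fold change was excluded for 18 (78.3%), near the 71.2% of all genes. The 2 lower genes were Clec7a and Fth1. Clec7a, a receptor for fungal glucans that marks reactive microglia, was at 1.803 to 9.61 CPM in Het-cKO and 6.70 to 10.1 in WT, with a log2 fold change of -0.63 (0.430 to 0.969-fold, unadjusted p = 0.0359). Fth1, the ferritin heavy chain, was at 621 to 794 and 605 to 1024 CPM (-0.22, 0.749 to 0.984-fold, unadjusted p = 0.0299). Trem2, the lipid-sensing receptor of the disease-associated program, had a log2 fold change of -0.06 (0.868 to 1.07-fold), and Apoe, the lipid carrier, one of 0.01 (0.794 to 1.27-fold). The cathepsins Ctsd and Ctsb were both at -0.15, with intervals of 0.792 to 1.03-fold and 0.788 to 1.03-fold.

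Limits on inflammatory genes were narrow for receptors and wider for their low-expressed targets. All 19 Toll-like receptor and NF-kB genes had a 1.5-fold change excluded, against 71.2% of all genes. The share was 96.1% of all genes with a mean log2 CPM of 4 to 6 and 98.8% of those with 6 to 8. Among the 19 were the receptors Tlr1 (-0.18, 0.758 to 1.03-fold), Tlr7 (0.07, 0.908 to 1.21-fold) and Cd14 (-0.12, 0.821 to 1.04-fold) and the NF-kB subunits Rela (-0.03) and Nfkb1 (-0.07). Of 9 tested chemokines and cytokines, 8 had estimates below 0 (median -0.21) and 3 (33.3%) had the change excluded. Il1a, an interleukin that microglia make, was at 90.4, 99.7 and 122 CPM in Het-cKO and 98.4, 129 and 146 in WT, so the groups overlapped (log2 fold change -0.26, SE 0.10, unadjusted p = 0.0162). Tnf, at 0 to 3.96 CPM in Het-cKO and 1.67 to 6.40 in WT, had an interval of 0.206 to 1.27-fold, and Ccl2 one of 0.588 to 1.59-fold.

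Interferon-induced genes were mostly too low for a firm limit. Of 19 tested, 15 had estimates below 0 (median -0.08), and 1, Rtp4, was lower at an unadjusted p of 0.0243. A 1.5-fold change was excluded for 8 (42.1%), against 71.2% of all genes. Rtp4 was at 6.70 to 10.7 CPM in Het-cKO and 9.09 to 11.7 in WT. The transducer Stat2 was better measured (0.13, 0.944 to 1.27-fold). Of 13 antigen presentation genes, 10 (76.9%) had the change excluded, near the 71.2% of all genes, and H2-D1, a class I heavy chain, was lower at an unadjusted p of 0.0262 (653 against 729 CPM on average). All 13 tested complement and Fc receptor genes had estimates below 0, between -0.19 and -0.04, and 12 (92.3%) had a 1.5-fold change excluded. That share was 98.8% of all genes with a mean log2 CPM of 6 to 8. The complement subunits C1qa, C1qb and C1qc were at -0.04, -0.06 and -0.07.

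Immediate-early genes, which are transcribed within minutes of a stimulus and also during tissue dissociation, showed no shared direction. Of 19 tested, 6 had estimates above 0 and 13 below, with 1 higher and 2 lower at an unadjusted p below 0.05. Klf4, a transcription factor, was at 0.651, 2.02 and 3.54 CPM in Het-cKO and 0.266, 0.940 and 1.11 in WT, with 4 of 7 Het-cKO mice above all WT mice (log2 fold change 1.33, SE 0.48, unadjusted p = 0.0123). Junb was at 162 to 213.97 and 166 to 238 CPM (-0.20, unadjusted p = 0.0325) and Ier2 at 9.06 to 18.5 and 11.3 to 23.0 CPM (-0.39, unadjusted p = 0.0372). Fos was near the lower limit of the test at 0.734 CPM in Het-cKO and 0.989 in WT. Of 14 heat shock and stress genes, 9 had estimates above 0 (median 0.11), none with an unadjusted p below 0.05. A 1.5-fold change was excluded for 9 of the 14 (64.3%), against 71.2% of all genes.

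Genes of endocytosis and of Alzheimer's disease risk had narrow intervals, with median limits of 1.16-fold and 1.18-fold against 1.31-fold over all genes. The limit depends on level, and was 1.195-fold for all genes with a mean log2 CPM of 6 to 8. All 16 tested relatives of Bin1 and endocytosis genes had a 1.5-fold change excluded. The share was 71.2% of all genes and 98.8% of those with a mean log2 CPM of 6 to 8. Bin3, another protein with a BAR domain, was at -0.16 (0.776 to 1.03-fold), Dnm2, the dynamin that cuts endocytic vesicles, at -0.03, and the clathrin heavy chain Cltc at -0.05. Of 18 Alzheimer risk genes 17 (94.4%) had this change excluded, among them Picalm (0.09, 0.961 to 1.18-fold), Inpp5d (0.00, 0.879 to 1.14-fold) and Cd2ap (0.14, 0.991 to 1.23-fold). The exception was Clu, at 1.75 to 10.4 CPM in Het-cKO and 0.370 to 3.93 in WT. Of 20 phagocytic and lysosomal genes, 16 had estimates below 0 (median -0.11) and 17 (85%) had the change excluded. Of 15 genes of LXR and cholesterol metabolism, 12 (80%) had it excluded, among them Abca1, the cholesterol exporter (0.01, 0.852 to 1.198-fold).

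Bace1 stood apart in its list. It encodes the beta-secretase that begins the amyloidogenic cut of App, and lies at chr9:45838580-45864399 on the plus strand. Het-cKO mice were at 22.03, 27.8 and 36.1 CPM (lowest, median, highest) and WT mice at 18.5, 20.8 and 23.9. Of the 7 Het-cKO mice, 6 were above every WT mouse. The log2 fold change was 0.44 (SE 0.12), which is 1.15 to 1.61-fold, at an unadjusted p of 0.00121 that did not pass adjustment. App itself (-0.08, 0.803 to 1.11-fold), the alpha-secretases Adam10 (-0.11) and Adam17 (-0.09) and the gamma-secretase subunit Ncstn (-0.16) had estimates below 0 with a 1.5-fold change excluded for each.

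**Figure D2:**
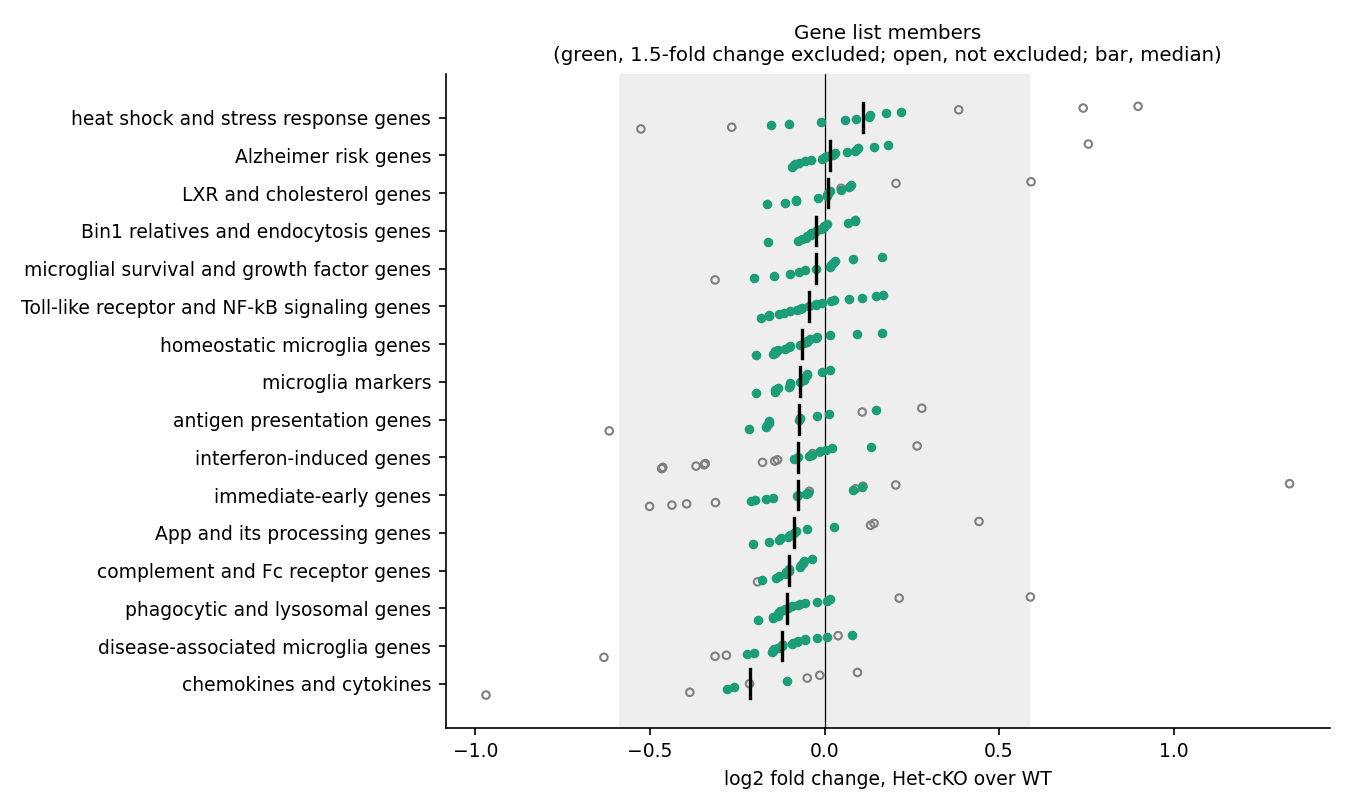
Log2 fold change (Het-cKO over WT, horizontal axis) of each tested member of 16 gene lists; green points have a 1.5-fold change excluded, open points do not, the black bar is the list median and the grey band spans 1.5-fold in both directions. The medians lie between -0.21 (chemokines and cytokines) and 0.11 (heat shock and stress response genes).

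The genes with the smallest p were higher in Het-cKO. Fancm, a DNA translocase of the Fanconi anemia repair pathway (ENSMUSG00000055884.7, chr12:65075603-65132058, plus strand), was at 3.32, 5.16 and 7.99 CPM in Het-cKO and 1.21, 2.03 and 3.68 in WT. Of 7 Het-cKO mice, 6 were above every WT mouse, and the log2 fold change was 1.46 (SE 0.30; edgeR adjusted p = 0.442, DESeq2 adjusted p = 0.00434). It was 1.74 in females and 1.28 in males. Nlrp1c-ps, a transcribed pseudogene beside the Nlrp1 inflammasome sensors (chr11:71242430-71285232, minus strand), was at 7.35, 12.7 and 16.3 CPM in Het-cKO and 4.88, 5.38 and 9.21 in WT, with a log2 fold change of 0.98 (SE 0.21, DESeq2 adjusted p = 0.0158). Its reads may be shared with the related Nlrp1 genes, so its level is uncertain.

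Gm37472, an unverified gene model (chr14:61677443-61681494, minus strand), had the smallest p of all, 7.58e-05 unadjusted. It lies inside the non-coding gene Dleu2 on the same strand. Het-cKO mice were at 10.2, 17.3 and 21.5 CPM and WT mice at 4.73, 8.22 and 11.1, and 6 of 7 Het-cKO mice were above every WT mouse. The log2 fold change was 1.12 (SE 0.22, edgeR adjusted p = 0.442, DESeq2 adjusted p = 0.00434). These 3 genes were the only DESeq2 calls, and the main test called none of them. EdgeR without a filter on low counts called all 3, at adjusted p of 0.000548 (Gm37472), 0.0130 (Fancm) and 0.00803 (Nlrp1c-ps).

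The next higher genes by p are described in turn. Pcnt, the centrosomal scaffold pericentrin (chr10:76351263-76442786, minus strand), was at 28.7, 29.5 and 39.0 CPM in Het-cKO and 18.6, 24.0 and 26.2 in WT, so the groups did not overlap (log2 fold change 0.49, SE 0.11). Dock8, an activator of the GTPase Cdc42 in immune cells (chr19:24999534-25202432, plus strand), was at 366, 413 and 477 CPM and 285, 311 and 366, again with no overlap, although the closest mice of both groups differed by less than 1 CPM (0.35, SE 0.08). A 1.5-fold change of Dock8 was excluded. Its interval of 1.13 to 1.44-fold is unadjusted, and Dock8 was chosen for its small p and did not pass adjustment. The lower end of that interval therefore sets no minimum for a change. Trip11, a Golgi tether, was at 35.9, 54.3 and 61.7 CPM in Het-cKO and 31.6, 35.6 and 43.7 in WT (0.53, SE 0.12). Its lowest Het-cKO mouse was Het-cKO M3, and without that mouse Trip11 was the only gene called, at a log2 fold change of 0.64 and an edgeR adjusted p of 0.0348. The formin Diaph2 (0.44), the chromatin regulator Ankrd11 (0.42), the elongation kinase Cdk13 (0.44) and the autophagy adaptor Wdfy3 (0.34) completed the 10 smallest p-values among higher genes, with 5 or 6 of 7 Het-cKO mice above all WT mice for each. In edgeR without a filter on low counts, Trip11, Ankrd11 and Cdk13 had adjusted p of 0.0135, 0.0263 and 0.0379, with changes under 1.5-fold.

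**Figure D3:**
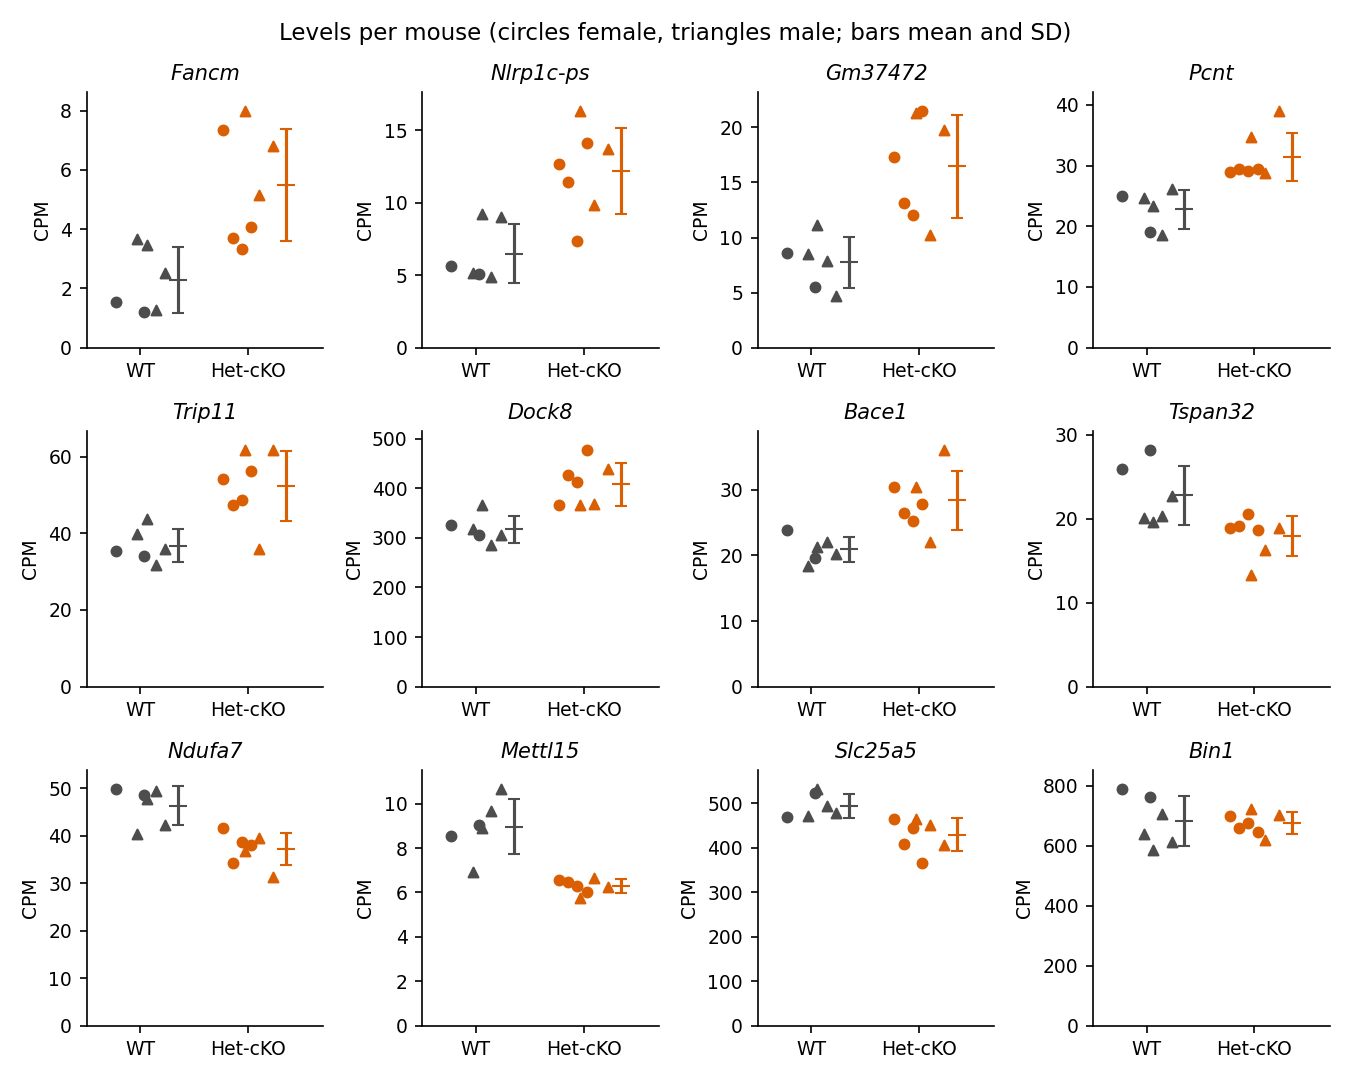
CPM of 12 named genes in each WT (grey) and Het-cKO (orange) mouse, with circles for females, triangles for males and bars for the mean and SD (n = 6 and 7). In Pcnt, Dock8, Mettl15 and Slc25a5 the groups do not overlap, while Bin1 ranges from 617 to 722 CPM in Het-cKO inside a WT range of 586 to 789.

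Tspan32, a tetraspanin of blood cells (chr7:143005046-143019644, plus strand), was at 13.3, 18.9 and 20.6 CPM in Het-cKO and 19.6, 21.5 and 28.2 in WT (log2 fold change -0.41, SE 0.10, unadjusted p = 0.000648). Ndufa7, a subunit of respiratory complex I (chr17:33824572-33838317, plus strand), was at 31.4, 38.1 and 41.6 CPM and 40.4, 48.2 and 49.9 (-0.34, SE 0.08), and a 1.5-fold change was excluded. In both, 6 of 7 Het-cKO mice were below every WT mouse. Arf2 (-0.30), Slc35a4 (-0.30) and the zinc finger gene Zfp810 (-0.35) also had a 1.5-fold change excluded.

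The largest negative estimates rested on low counts. Kcnab2, a potassium channel subunit, was at 0 to 1.11 CPM in Het-cKO and 0.791 to 3.71 in WT (0.116 to 0.558-fold). Cd300lb, a myeloid receptor, was at 0.489 to 1.696 and 1.29 to 5.49 CPM, and Inka2, a kinase inhibitor, at 0.0824 to 1.38 and 0.813 to 3.64. Gm826 rested on WT F2, which was at 20.9 CPM while the next WT mouse was at 1.89. Gm10157 is a processed pseudogene whose reads can belong to its parent gene and is uncertain.

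Complete separation of the genotypes was rare, at about the number of genes that chance gives. With 7 and 6 mice, each direction is 1 of 1716 possible splits, and 12309 genes were tested. In 9 genes (0.0731%) every Het-cKO mouse was above every WT mouse, namely Pcnt, Dock8, Stox2, Phc3, Kmt5b, Pld2, Prkce, Skp2 and Lipe. In 5 genes (0.0406%) every Het-cKO mouse was below, namely Mettl15, Rmnd5b, Qprt, Slc25a5 and Lrrc24. Mettl15, which methylates mitochondrial ribosomal RNA, was at 5.77, 6.31 and 6.64 CPM in Het-cKO and 6.91, 8.99 and 10.7 in WT (-0.51, SE 0.15), and Slc25a5, the ADP/ATP carrier of mitochondria, at 365, 444 and 464 and 470, 485 and 532 CPM (-0.20, SE 0.07). The polycomb protein Phc3 (0.48) and the histone H4 methyltransferase Kmt5b (0.30) act on chromatin, Pld2 (0.30) is a phospholipase and Prkce (0.34) a protein kinase C. Which genes separated depended on the scaling: 14, 7 and 4 of these 14 also separated under relative log expression, upper quartile and total count scaling. None had an adjusted p below 0.05.

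Trends were frequent in several classes of transcript. The 2 described here were chosen after their values were seen and were not tested as classes. The first was unverified gene models inside other genes. Of the genes tested, 208 were annotated as TEC (a model still awaiting experimental evidence) or sense intronic and lay inside a protein-coding gene on the same strand, and 7 of these overlapped an exon of that gene. Of the 208, 194 had estimates above 0 with a median log2 fold change of 0.65, and 64 (30.8%) were higher and 0 lower at an unadjusted p below 0.05, against 5.67% and 2.6% of all genes. None was called in the main test, and edgeR without a filter on low counts called 3. The 148 tested protein-coding hosts had a median of 0.04, with 62.2% of estimates above 0 against 48.5% of all genes. Of the hosts, 19 (12.8%) were higher and 2 (1.35%) lower at an unadjusted p below 0.05. Their median longest transcript was 4994 bases, against 3150 over all genes, so they overlap the second class. The model exceeded its host in 171 of 190 pairs, by a median of 0.64.

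A few models, chosen after their values were seen, show the sizes. Inside Ptprc, which encodes the leukocyte antigen CD45, the model A130071D04Rik averaged 8.36 CPM in Het-cKO and 4.41 in WT (log2 fold change 0.99, SE 0.32), while Ptprc was at -0.01. Inside Fli1, a transcription factor of blood lineages, Gm37474 averaged 15.3 and 7.96 CPM (0.94) against -0.07 for Fli1. Inside Gtf2i, a general transcription factor, Gm43481 averaged 18.0 and 9.52 CPM (1.04) against 0.00. Gm38380 in Ncoa2 (1.54), Gm43466 in Man1a2 (1.49) and Gm37613 in Nav2 (2.10) were the 3 models among the 5 largest positive estimates with an unadjusted p below 0.01 and a mean log2 CPM of at least 0. Their hosts were not all flat, with Ncoa2 at 0.19, Man1a2 at 0.11 and Nav2 at 0.65. Under a mean log2 CPM of 0, Gm43499 in Tec (2.35), Gm43761 in Ggta1 (2.01) and Gm38372 in Pcmtd1 (1.74) had large estimates too. The library preparation does not mark strand, so sense and antisense RNA over these models cannot be told apart.

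The share of counts on these models differed between mice, and the groups overlapped. It was 0.0495%, 0.0747% and 0.112% (lowest, median, highest) in Het-cKO and 0.0395%, 0.0479% and 0.0825% in WT. The highest mice were Het-cKO M1, M4 and F4, followed by WT M2. Together with F1, Het-cKO M1, M4 and F4 also had the 4 highest shares of mitochondrial counts and of small and ribosomal RNA counts in their group. Within WT, M2 and F1 had the highest shares on the models (0.0825% and 0.0707%) and of mitochondrial counts (0.385% and 0.411%). For small and ribosomal RNA, F1 was highest in WT and M2 (0.286%) was below F2 (0.324%). Small and ribosomal RNA took 0.282% to 0.675% of counts in Het-cKO and 0.239% to 0.444% in WT. The part of these shares in the result was not tested. Leaving out 1 mouse at a time gave medians of 0.50 to 0.82, and between 35 (without Het-cKO M1 or M4) and 88 (without WT F1) models with an unadjusted p below 0.05, all higher.

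**Figure D4:**
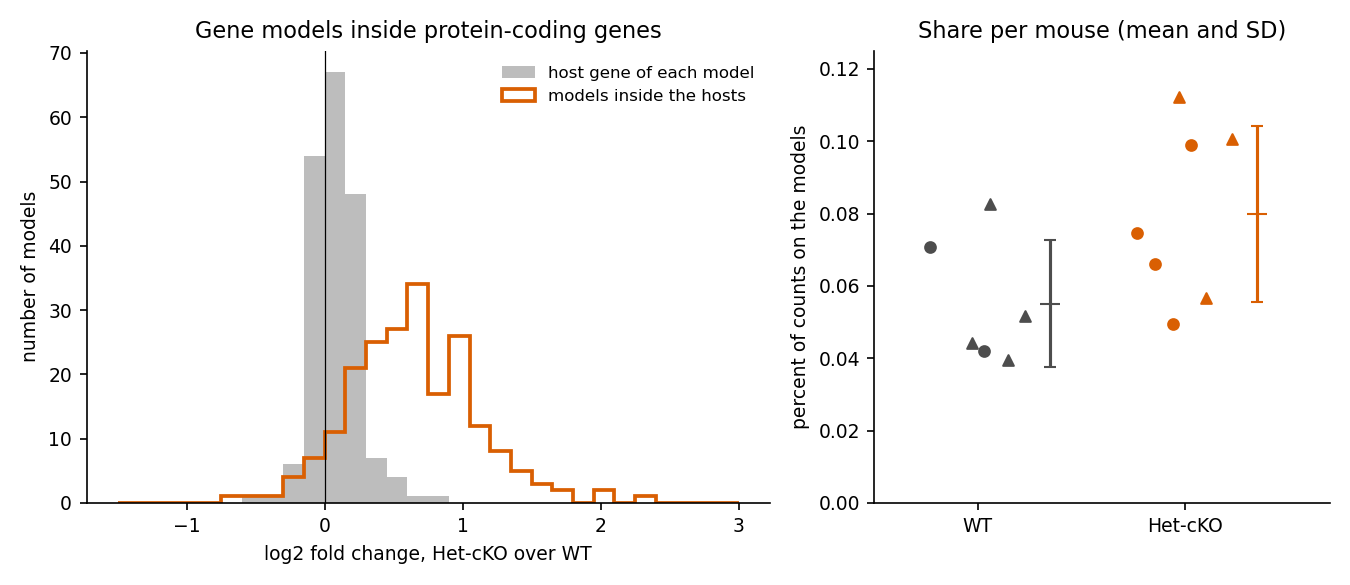
Left, number of gene models by log2 fold change (Het-cKO over WT) for 208 models inside protein-coding genes (orange line) and for the host gene of each (grey bars, 190 pairs with a tested host); right, the percent of each mouse's counts on these models, with circles for females, triangles for males and bars for mean and SD. The models centre at 0.65 and the hosts near 0, while the shares per mouse overlap between 0.0495% and 0.0825%.

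The second was long transcripts. The genes were divided into 5 equal bins by the longest annotated transcript of each gene, and the median log2 fold change was -0.05, -0.03, -0.02, 0.01 and 0.08 from shortest to longest. In the longest bin (4947 bases or more) 350 of 2449 genes (14.3%) were higher at an unadjusted p below 0.05 and 28 (1.14%) lower. In the shortest bin 61 (2.49%) were higher and 85 (3.47%) lower. Pcnt, Trip11, Dock8, Ankrd11, Cdk13 and Wdfy3 belong to the longest bin and Ndufa7 to the shortest. The mean level of the longest bin minus that of the shortest was 1.18 ± 0.0871 log2 CPM in Het-cKO (SD, n = 7) and 1.09 ± 0.131 in WT (n = 6), and the difference of 0.0852 was smaller than the SD of either group. By GC content of the same transcripts, 9.59% of genes were higher and 2.2% lower in the lowest bin, against 2.86% and 2.9% in the highest. With offsets for length and GC content the bin medians lay between -0.03 and -0.01, 122 genes were higher and 160 lower in the longest bin, and several named genes moved. The offsets were fitted to length and GC content in each of these libraries, so flatter bins follow from the fit. Wdfy3 went from 0.34 to 0.14, Cdk13 from 0.44 to 0.24, Diaph2 from 0.44 to 0.28 and Phc3 from 0.48 to 0.31, each by over 1.5 times. Pcnt went from 0.49 to 0.40, Trip11 from 0.53 to 0.37 and Fancm from 1.46 to 1.37, and Nlrp1c-ps was at 0.98 in both.

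**Figure D5:**
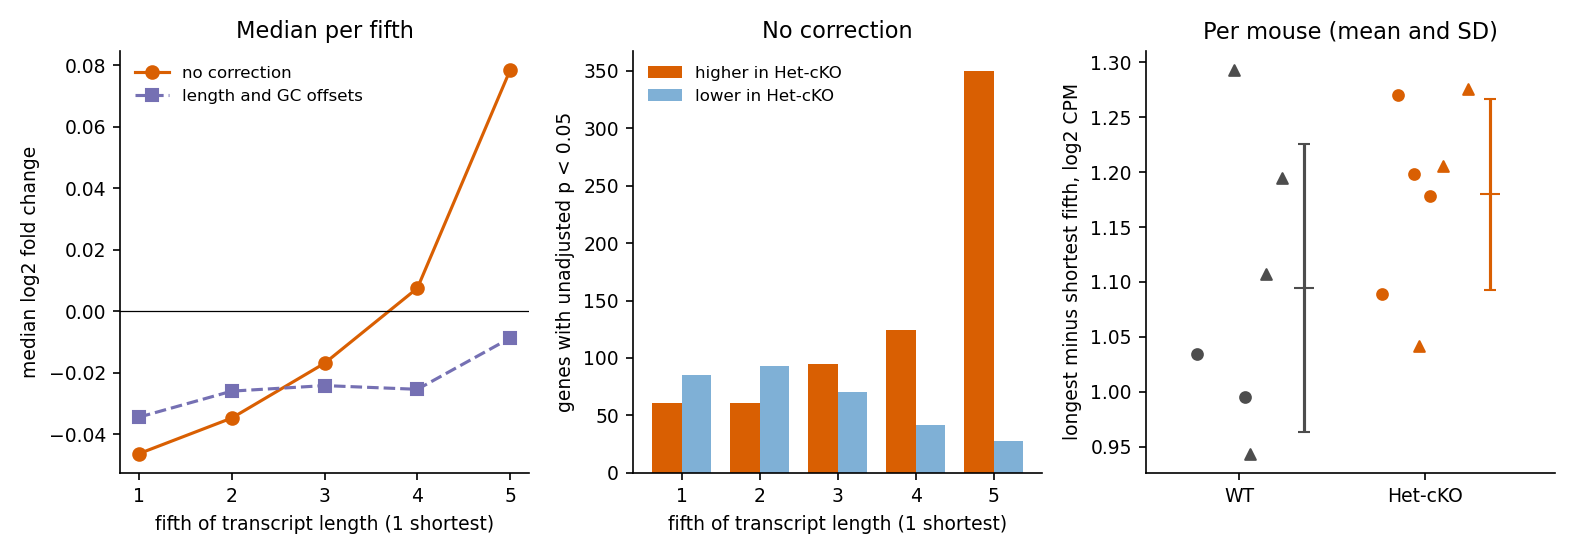
Left, median log2 fold change by bin of transcript length without correction (orange) and with length and GC offsets (purple); middle, genes with an unadjusted p below 0.05 that were higher or lower in Het-cKO, without correction; right, longest minus shortest bin in log2 CPM for each mouse with mean and SD. The count of higher genes goes from 61 in the shortest to 350 in the longest bin.

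Markers of the choroid plexus, the tissue that secretes cerebrospinal fluid, differed widely between mice. Ttr, its thyroid hormone carrier, was at 2.06, 21.9 and 170 CPM in Het-cKO and 0.0728, 6.92 and 22.1 in WT (log2 fold change 2.37, SE 0.76, unadjusted p = 0.00592), and Kl, which encodes klotho, at 0 to 11.1 and 0 to 1.27 CPM (2.74). Both were highest in Het-cKO M3, where the summed choroid plexus and ependymal markers reached 194 CPM against 2.27 to 37.7 in the other Het-cKO mice and 0.370 to 23.5 in WT. Of the 8 markers, 2 were tested. Among neurons' markers Gad1, the GABA-synthesizing enzyme, was at 0 to 1.31 CPM in Het-cKO and 0 to 4.59 in WT (-1.701, unadjusted p = 0.0354), Snap25 at -0.18 and Nrgn at 0.04. Border macrophage markers had 7 of 9 estimates above 0 (median 0.33) with none below an unadjusted p of 0.05 and no 1.5-fold change excluded.

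Genes that earlier analyses of these data had named were checked in the same fit. Slc9a4, Erbb3, Gm12231 and Tns2 had 0 counts in all Het-cKO mice and 9, 10, 4 and 8 counts in WT, each from a single WT mouse, and were not tested. Of the genes named for homozygous mice, Lyz2 (0.801 to 1.12-fold), Gnpda1 (0.820 to 1.03-fold), Eno1b (0.813 to 1.04-fold), Gm8615 (0.770 to 1.17-fold) and Lilra5 (0.654 to 1.31-fold) had a 1.5-fold change excluded, and Ccl2, Fos and Nrgn did not. The exclusion of Lilra5 was kept in 13 of 23 settings and in 5 of 13 runs without 1 mouse (adjusted p up to 0.17). The study's own list of genes that differ in homozygous mice was chosen with the same WT mice and is not independent evidence. Of its 249 tested members 16 were higher and 16 lower in Het-cKO at an unadjusted p below 0.05. Of all 12309 genes tested, 698 (5.67%) were higher and 320 (2.6%) lower. The share of higher members was thus near that of all genes, and the share of lower members was larger. The list had a median of -0.04 on the log2 scale, and 116 members (46.6%) had a 1.5-fold change excluded, against 71.2% of all genes.

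A difference in the genotype effect between sexes was not detectable by edgeR. The genotype by sex interaction was called for 0 genes (0%) by edgeR, with 1163 at an unadjusted p below 0.05 and a smallest adjusted p of 0.351. Limma-voom called 0 and DESeq2 called 9, among them Cd276 (-0.87), Plxdc1 (-0.85) and the cholesterol exporter Abcg1 (-0.57), where the value is the log2 effect in males minus that in females. Within females, 773 genes had an unadjusted p below 0.05 and within males 1474, and neither sex had a gene with an adjusted p below 0.05. The WT group holds 2 females, which limits the test.

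No principal component separated the genotypes past the threshold. The first component held 19.5% of the variance, with scores of -46.5 to 14.8 in Het-cKO and -11.2 to 29.2 in WT. The difference of means was -21.4 (exact permutation test over 1716 splits, two-sided, p = 0.0775, adjusted over 3 components 0.233). On the other two components the adjusted p was 0.571 and 0.585 by the same exact permutation test. Sex was associated with the second component (exact permutation p = 0.00175, adjusted 0.00524). Het-cKO M1, M4 and F4, the mice with the highest share of counts on the intronic models, also had the 3 lowest scores on the first component. Within WT, M2 and F1 had the highest such shares and the lowest scores (-11.2 and -6.94).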

How the data were processed

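CD11b+ CD45med microglia were sorted from brains of single mice, and cDNA was made with the SMARTer Ultra Low Input kit and sequenced as single-end reads. The authors aligned the reads with OSA to mm10, estimated expected counts per gene with RSEM and Ensembl annotation, and deposited them as 1 table. A total of 82.2% of values were whole; all were rounded. The study removed outlying libraries before deposit. GENCODE vM21 (GRCm38) gave names and coordinates for 42929 of 43411 identifiers.

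Genes were filtered by filterByExpr and scaled by TMM. Genotype was tested with sex as covariate by edgeR 4.0.16 (quasi-likelihood, R 4.3.3) with Benjamini-Hochberg adjustment. A 1.5-fold change was called excluded where 2 one-sided tests against that limit both passed at an adjusted p below 0.05. Intervals are 95% and unadjusted, and can reach slightly past 1.5-fold for a gene called excluded. CPM values use TMM; log2 CPM for principal components used a prior count of 2. Alternatives were limma 3.58.1, DESeq2 1.42.0, other scalings and filters, each mouse left out, and, chosen after seeing the data, offsets for transcript length and GC content fitted within each library. Tests were checked on simulated data. Members and lists were chosen with earlier results of these data known; the classes of intronic models and long transcripts were chosen after their values were seen and were not tested. Named were, with mean log2 CPM not under 0, the 10 genes of smallest p and the 5 largest changes with p below 0.01 per direction. Also named were up to 6 non-overlapping genes per direction (the others stand beside their count) and the 8 narrowest intervals. From each list came the most abundant members and the member of smallest p. Bin1, genes called by DESeq2 between genotypes, and genes earlier results name were added. Genes called by edgeR without a filter are named in part. P-values measure the spread between these mice. Some genes are not reported here.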

Additional observations from a re-analysis of the deposited data

Results flagged for a closer look

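In 23 of 316 sets of values (a gene, marker sum or score within 1 genotype), 1 mouse stood far from the others of its genotype by Dixon's criterion. Chance gives about 1 in 20. None was weighed further, and none of these genes passed the main test between genotypes. Without a filter on low counts edgeR called Ttr, Gm826 and Gm10157, at adjusted p of 0.000548, 0.0125 and 0.0147.

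Het-cKO M3 was highest for Ttr (169.9 CPM, next 31.3), Kl (11.1, next 4.75), the summed choroid plexus and ependymal markers (193.9 CPM, next 37.7) and Kmt5b (45.6 CPM, next 40.5). Het-cKO M4 was highest for the summed monocyte and neutrophil markers (66.9 CPM, next 18.2) and lowest for Rmnd5b (34.2 CPM, next 44.3). Het-cKO M1 was lowest for Tgfbr1 (1573 CPM, next 2087) and Adam17 (236.1, next 336.8) and highest for Rela (212.1, next 187.2). Het-cKO F1 was highest for Slc1a2 (5.975 CPM, next 1.17), Nrsn1 (6.14, next 1.90), Junb (213.97, next 179.9) and Gm10157 (2.34, next 0.910). Het-cKO F4 was highest for Cd14 (750.8 CPM, next 648.0).

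WT F2 was highest for Gm826 (20.9 CPM, next 1.89), Inka2 (3.64, next 1.53), Zfp810 (44.0, next 37.5), Ccl4 (24.2, next 16.1) and Rela (210.1, next 187.7), and lowest for Skp2 (4.71, next 8.06). WT F1 was highest for Eno1b (115.0 CPM, next 87.9), WT M1 for Lilra5 (8.38, next 5.75) and WT M4 for Aldoc (11.4, next 6.92).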

How the results depend on the processing

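The count of called genes stayed at 0 in edgeR under the other scalings, a CPM minimum of 1 in 6 mice, robust dispersion, no sex term, all mice of the 3 genotypes, offsets for length and GC content, and adjusted p limits of 0.05 and 0.1 alone. DESeq2 called 3 genes, and edgeR without a filter on low counts called 20 (17 higher), 4 of which had no count in 1 genotype. Of the 20, 16 were also tested with the filter, among them the 3 genes that DESeq2 called. Without that filter 1843 genes had an unadjusted p below 0.05. Leaving out 1 mouse gave 0 to 1 calls (Trip11, without Het-cKO M3). With a limit of 1.2-fold, 0 genes had a change excluded; under the other settings the count for 1.5-fold lay between 8124 and 8950. The interaction was called for 9 genes by DESeq2 and for 0 in every run without 1 mouse. The log2 fold change of Bin1 lay between -0.083 and 0.0050 without 1 mouse, the positive value being without WT F1. On the 500 most variable genes the first component gave a difference of 1.44 between genotypes (adjusted p = 0.924 by exact permutation test) and was a different axis from that over all genes; without 1 mouse the difference lay between -26.3 and -17.9 on the first component and between -7.39 and 0.32 on the third. Values of the other two components are left out where the axis was a different one (scaled genes, the 500 most variable genes for the second, without Het-cKO M1, and without both end mice). The cause of these differences was not tested.

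Genes under a log2 CPM of 2 are limited by depth, and the WT group by 2 females. A 1.5-fold change of Lilra5, Camk2a and Ccl12 was excluded narrowly and lost under 10 to 12 settings each.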

Other observations

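Genes of protein synthesis and respiration had small estimates below 0 in common; both lists were set after the data were seen and were not tested. Of 80 cytosolic ribosomal protein genes, 72 had estimates below 0, with a median log2 fold change of -0.10, 0 higher and 2 lower at an unadjusted p below 0.05, and a 1.5-fold change excluded for 78. Of 75 subunits of the respiratory chain, 71 had estimates below 0, with a median of -0.07, 6 lower and 0 higher at an unadjusted p below 0.05, and the change excluded for 73. Both lists hold short transcripts, with median lengths of 1100 and 983 bases. The exclusion covered 97.5% and 97.3% of their members, against 71.2% of all genes and 98.8% of those with a mean log2 CPM of 6 to 8.

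By annotated class, 10742 protein-coding genes had a median log2 fold change of -0.02, 312 TEC models 0.55, 257 antisense genes 0.14, 221 lincRNA genes 0.12 and 324 processed pseudogenes -0.01. In the same order, 4.86%, 26.3%, 8.95%, 8.14% and 3.4% were higher at an unadjusted p below 0.05, against 5.67% of all genes. Without a filter on low counts the 20 genes called by edgeR included Ttr, Enpp2 and Sostdc1, which are expressed in choroid plexus. Sostdc1 had 45 counts in 5 Het-cKO mice and 0 in WT, and 50.2% of the counts of Enpp2 came from 1 mouse. Nav2, Arhgap30, Gm17132, Gm17131, Gm42927 and Kcnq1ot1 were also among the 20, all higher in Het-cKO. Their adjusted p in that edgeR test ran from 0.00525 (Nav2) to 0.0379 (Kcnq1ot1).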
